A study of Rattus norvegicus with 10 samples.

Results

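Potassium channel genes were followed in the left hippocampus of female TgF-344AD rats that were fed the histone deacetylase inhibitor RG2833. The genes were those whose symbols begin with Kcn, the root of the potassium channel nomenclature, followed by a subfamily letter code and a number. This rule covers pore-forming subunits and the auxiliary subunits that travel with them, and it found 90 of the 17168 gene symbols in the count table. All 10 animals carried the Tg-AD genotype, were female and were 11 months old at the end. Group by group, 5 ate ordinary rodent chow (the untreated group) and 5 ate chow with 750 mg of RG2833 per kg from 5 months of age for 6 months (the RG2833 group). A blue food dye distinguished the chows, and the labels do not say which chow carried it. TgF-344AD rats carry mutant human transgenes of familial Alzheimer's disease under a prion promoter, so every comparison is within a transgenic background, and no wild-type rats were analysed here. Libraries were strand-specific mRNA libraries, 1 for each animal.

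Potassium channels let potassium leave neurons and glia down its gradient, which sets the resting potential and ends action potentials. Voltage-gated Kv channels repolarise the axon and dendrite, Kv7 channels carry the M current that limits repetitive firing, inward rectifiers (Kir) and tandem-pore (K2P) channels set rest, and calcium- or sodium-activated channels shape the afterhyperpolarisation. In the hippocampus, Kv4 channels damp signals in pyramidal dendrites, Kv3 channels support fast repolarisation, and Kir3 channels carry the slow inhibition evoked by GABA-B and adenosine receptors. Astrocytes clear extracellular potassium mainly through the Kir4.1 channel.

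Expression values are CPM, read counts brought to a common library size with TMM scaling, which corrects for differences in library composition. CPM is not corrected for transcript length, so levels are compared between animals and never between genes. The library totals ran from 8764266 to 11311673 estimated counts, and the floor of 3 counts corresponded to 0.268 to 0.343 CPM, which covers counting error only. Hippocampal markers were present in all animals, among them Prox1 of dentate granule cells, with 32.8 ± 19.8 CPM (SD, n = 5) in the untreated and 46.8 ± 15.6 CPM in the RG2833 group, and Wfs1 of CA1 pyramidal cells. Wfs1 was at 88.0, 78.7, 64.6, 588 and 63.9 CPM in untreated animals 1 to 5 and at 108, 605, 542, 384 and 182 CPM in animals 1 to 5 on RG2833, so untreated animal 4 stood far above the other untreated animals. The pyramidal cell marker Pou3f1 was at 22.9, 27.3, 43.0, 119 and 27.7 CPM in untreated animals 1 to 5 and at 33.7, 140.1, 88.3, 106 and 41.1 CPM in animals 1 to 5 on RG2833, again with untreated animal 4 the highest of its group. Mpped1 and Nptx1 of the same marker list were also highest there among the untreated (287 and 1232 CPM). Other markers on that list differed. Fibcd1 was at 365 and 298 CPM in untreated animals 3 and 5, above 251 CPM in animal 4. Grik4 and Bok were highest in untreated animal 1 (135 and 114 CPM), against 94.5 and 107 CPM in animal 4. Untreated animal 4 had a score of 11.5 on the first principal component of all tested genes, inside the RG2833 range of 9.18 to 25.3, whereas the other untreated animals lay between -27.8 and -13.8. Untreated animal 1 had 2455 CPM summed over 7 choroid plexus markers, against 9.54 CPM in the lowest untreated animal and 6.68 to 49.1 CPM with RG2833. Ribosomal RNA loci took 2.70 to 5.36% of the counts in untreated and 1.13 to 1.96% in RG2833 animals, with no overlap (p = 0.00794 in an exact 2-sided permutation test, the smallest that 5 against 5 allows), so this share and the treatment cannot be told apart.

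Of the 90 genes, 73 had enough counts to be tested and 17 did not. Among the 73, 3 were called higher and 1 lower with RG2833 (edgeR's quasi-likelihood test with a threshold of 0.05 on the p-value adjusted by Benjamini-Hochberg over all 11791 tested genes). Among those described here, Kcnab2, a Kv1 beta subunit, and Kcnj11, the pore of ATP-sensitive channels, rose, and Kcnt1, the sodium-activated channel also known as Slack, fell. Over all tested genes 5.08% were called, 2.41% higher and 2.67% lower, so the 4 potassium channel genes (5.48% of 73) are about the share found anywhere in the table. At an unadjusted p under 0.05, 17 of the 73 passed (23.3%), against 24.5% of all tested genes. Of these, 12 were higher and 5 lower, against 11.8% and 12.7% of all tested genes. In 4 of the 73, Kcnab2 and Kcne2 among them, the RG2833 values did not overlap the untreated values (5.48%, against 7.27% of all tested genes). Of these, 3 were higher with RG2833, against 3.8% of all tested genes. The log2 fold change of RG2833 over untreated was above 0 in 50 of the 73 (68.5%, against 49.4% of all tested genes), and its median was 0.13, against -0.0035 over all tested genes. With library totals in place of TMM scaling it was above 0 in 49 of the 73. Of the 62 tested pore subunits 44 had an estimate above 0 and 3 were called, and of the 11 tested auxiliary subunits 6 did and 1 was called. At the looser threshold of 0.1 on the adjusted p, 8 passed, against 12.4% of all tested genes, and Kcnj16, Kcne2 and Kcnf1, all lower, were among the 4 added. DESeq2's Wald test called 9, of which 5 were higher and 4 lower, against 11% of all tested genes, 5.21% higher and 5.78% lower.

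**Figure D1:**
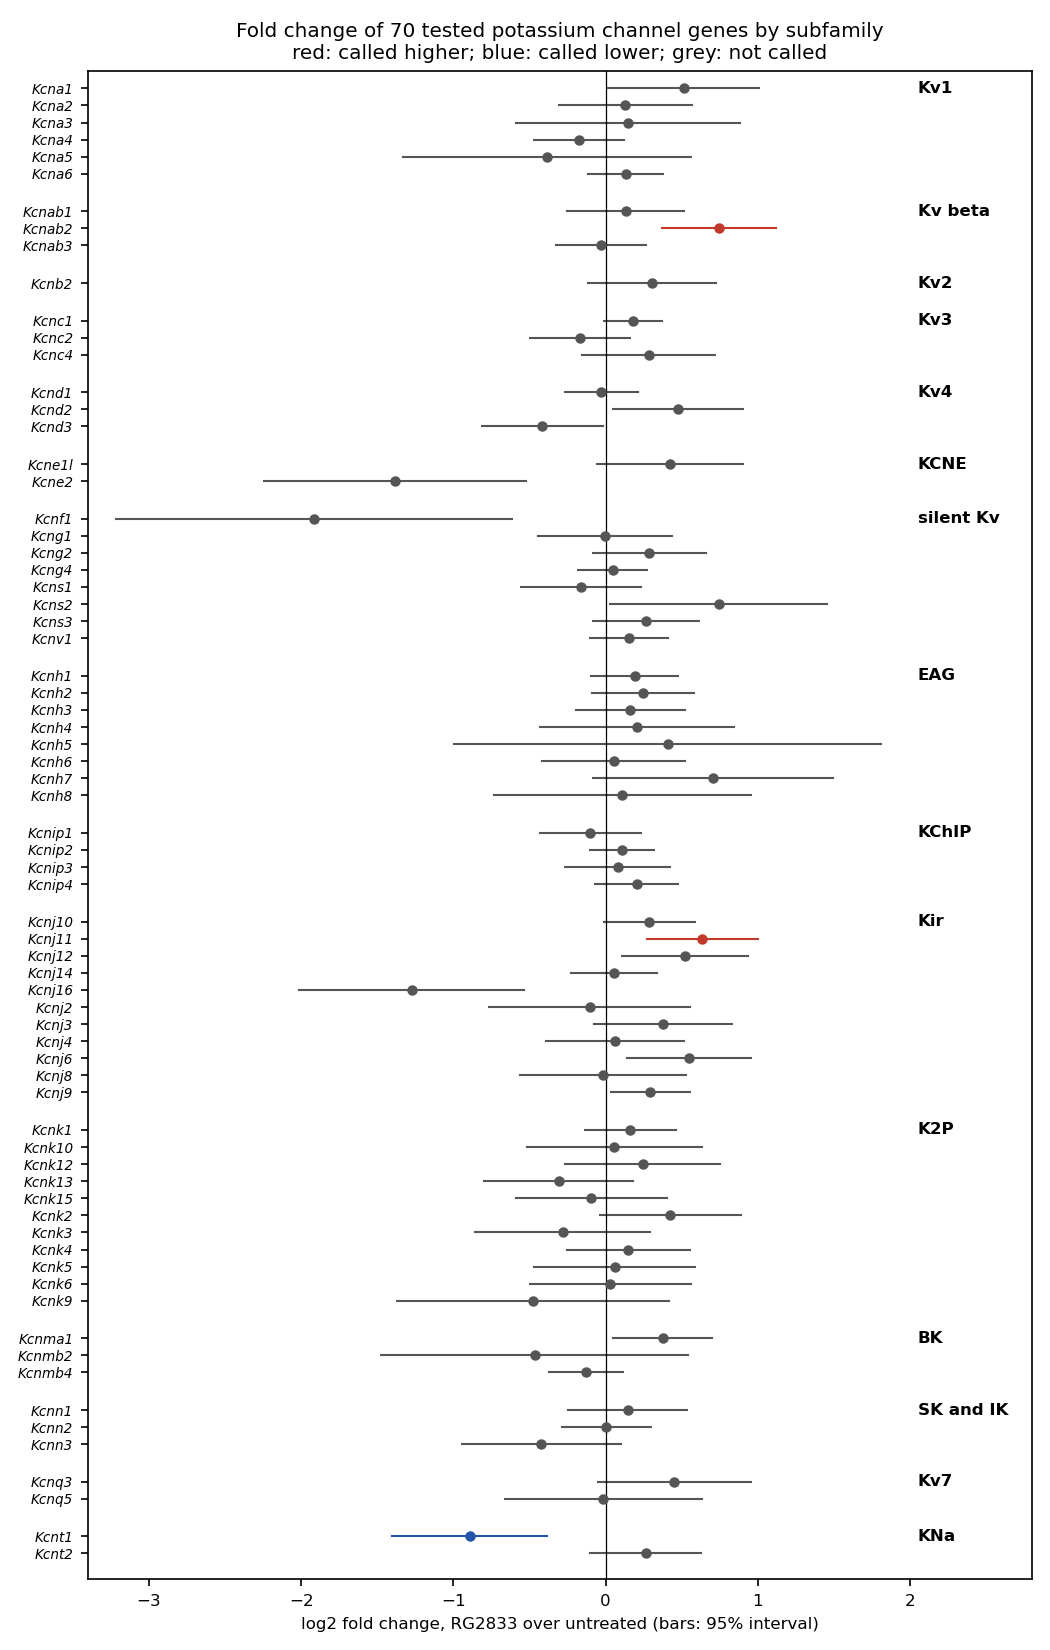
Log2 fold change of RG2833 over untreated (x axis) for 70 of the 73 tested potassium channel genes, grouped by subfamily, with points for the estimate and bars for the 95% interval. Kcnab2 and Kcnj11, called higher, and Kcnt1, called lower, stand out by colour, and most other intervals cross 0.

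Kcnab2 encodes Kv beta 2, a cytoplasmic subunit with an oxidoreductase fold that helps carry Kv1 channels to axons. Its level was 199, 179.6, 324, 345 and 303 CPM in untreated animals 1 to 5 and 388, 459, 415, 474 and 529 CPM in animals 1 to 5 on RG2833. The groups did not overlap, and untreated animals 1 and 2 were the lowest. At a log2 fold change of 0.75 with an SE of 0.17 (n = 5 each, adjusted p = 0.0345 by edgeR), Kcnab2 had the largest positive estimate among the 73 tested genes.

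Kcnj11 encodes Kir6.2, which closes when ATP is high and couples metabolism to excitability. It was at 30.0, 22.7, 22, 41.7 and 22.1 CPM in untreated and 38.3, 45.1, 42.0, 39.5 and 50.3 CPM in animals 1 to 5 on RG2833. Untreated animal 4, at 41.7 CPM, lay inside the RG2833 range, and the other untreated animals lay below it. The log2 fold change was 0.64 with an SE of 0.17 (n = 5 each, adjusted p = 0.0499 by edgeR, just under the threshold). It was not called with library totals in place of TMM scaling or with no filter on low counts (adjusted p = 0.0553 and 0.0525 by edgeR).

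Kcnt1 encodes the Slack channel, which opens when sodium enters during firing. Its level was 27.3, 45.3, 23.2, 14.3 and 32.2 CPM in untreated and 16.1, 15.5, 16.7, 13.9 and 14.2 CPM in animals 1 to 5 on RG2833. The RG2833 animals lay close together, and untreated animal 4 was again inside their range while the other untreated animals were above it. The log2 fold change was -0.89 with an SE of 0.23 (n = 5 each, adjusted p = 0.0480 by edgeR), a 0.538-fold level. With limma-voom Kcnt1 was not called (adjusted p = 0.0884).

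Promoter windows were looked up for called genes because they moved in opposite directions. RefSeq windows on GRCr8, which run from 250 bases before to 50 after an annotated start, were at hand for Kcnab2 and Kcnt1. Each is printed on the gene's own strand, 5′ to 3′, in lower case, with matches to the motifs searched in capitals. The Kcnab2 window lies on the minus strand at chr5:168270711-168271010, and the Kcnt1 windows, for 2 annotated starts, on the plus strand at chr3:29081089-29081388 and chr3:29095846-29096145.
Kcnab2: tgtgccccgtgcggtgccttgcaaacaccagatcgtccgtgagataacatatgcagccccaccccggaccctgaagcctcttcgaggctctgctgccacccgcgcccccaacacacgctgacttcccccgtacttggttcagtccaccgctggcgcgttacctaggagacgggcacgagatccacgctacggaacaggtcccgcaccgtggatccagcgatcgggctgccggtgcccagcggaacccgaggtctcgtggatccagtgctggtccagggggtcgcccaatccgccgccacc
Kcnt1 first start: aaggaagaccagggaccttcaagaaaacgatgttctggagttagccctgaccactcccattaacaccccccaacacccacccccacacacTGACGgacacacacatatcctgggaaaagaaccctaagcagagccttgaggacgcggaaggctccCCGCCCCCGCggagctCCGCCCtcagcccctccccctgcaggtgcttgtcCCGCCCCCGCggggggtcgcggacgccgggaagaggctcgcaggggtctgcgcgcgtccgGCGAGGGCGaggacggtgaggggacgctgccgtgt
Kcnt1 second start: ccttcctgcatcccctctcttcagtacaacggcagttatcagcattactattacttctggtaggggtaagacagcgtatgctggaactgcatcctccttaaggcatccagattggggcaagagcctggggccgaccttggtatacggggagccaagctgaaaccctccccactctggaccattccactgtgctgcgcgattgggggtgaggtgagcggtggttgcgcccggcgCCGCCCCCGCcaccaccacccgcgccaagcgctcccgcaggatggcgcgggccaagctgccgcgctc
The motifs, on both strands, were the Sp GC box GGGCGG, the cyclic AMP response core TGACG, the EGR site GCGNGGGCG, the AP-1 site TGANTCA and the TATA box TATAAA. EGR matches can overlap GC boxes. Kcnab2 held 0 matches to these letters, the first Kcnt1 window held 3 GC boxes, 1 TGACG and 3 EGR matches, and the second held 1 GC box and 1 EGR match. Among all 33469 windows, 33.1% held a GC box, 21.2% TGACG, 4.98% an EGR match, 7.33% an AP-1 match and 14.2% a TATA box. Over 68 windows of 62 potassium channel genes the shares were 50, 20.6, 8.82, 4.41 and 2.94%. These are letter matches and not shown to be bound sites.

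**Figure D2:**
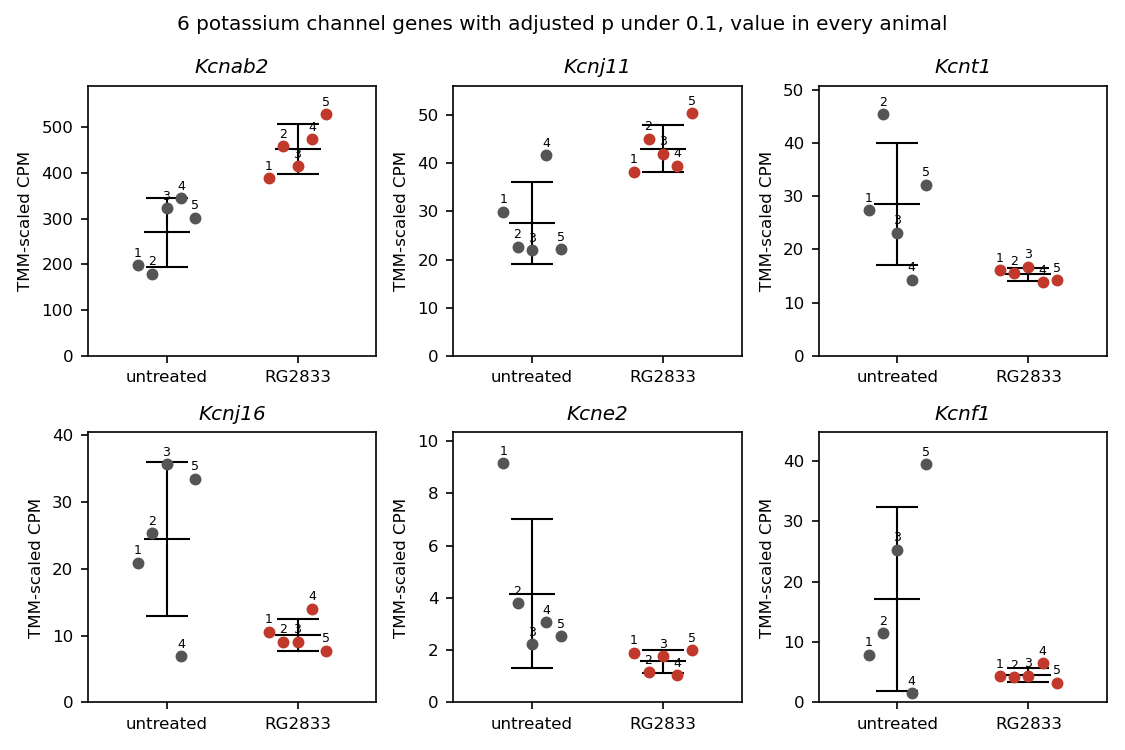
TMM-scaled CPM (y axis, from 0) in each untreated and RG2833 animal for 6 potassium channel genes with an adjusted p under 0.1, where numbers mark the animal and bars the mean ± SD (n = 5). Untreated animal 4 sits among the RG2833 animals for Kcnj11 and Kcnt1 and below all of them for Kcnj16 and Kcnf1.

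Whether these genes passed depended on which animals entered the fit. In the 10 fits that each left out 1 animal, Kcnab2 was called in 2, and Kcnj11 and Kcnt1 in 1 each (adjusted p up to 0.0971, 0.129 and 0.118). None of these 3 changed direction in any of the 10 fits, and after adjustment for the share of ribosomal RNA none was called (edgeR adjusted p = 0.9999 for each), against 0.017% of all tested genes. The log2 fold changes were then 0.48 for Kcnab2, 0.09 for Kcnj11 and -0.26 for Kcnt1. Left out in turn, each of untreated animals 1 and 3 and of the 5 RG2833 animals brought the number of called potassium channel genes to 0. Without untreated animal 1, 1.63% of all tested genes were called, 0.642% higher and 0.989% lower, and without untreated animal 3 the share was 0.954%. Without RG2833 animals 1 to 5 it was 1.1, 0.945, 0.995, 1.8 and 0.826%. Without untreated animal 2 there was 1 call, against 2.37% of all tested genes, and without untreated animal 5 there were 3, against 7.61%. Without untreated animal 4 the number was 15, with 9 higher and 6 lower, when 13.1% of all tested genes were called, 6.84% higher and 6.3% lower. The animal left out there is the one whose profile lay among the RG2833 animals. Beside the genes above, it called Kcnd2, Kcnh7, Kcnj12, Kcnj6, Kcnq3 and Kcns2 higher and Kcnd3, Kcne2, Kcnf1, Kcnj16 and Kcnn3 lower. Without untreated animals 1 and 4 together, 10 were called (against 11.6% of all tested genes), 5 higher and 5 lower, against 6.39% and 5.2% of all tested genes.

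**Figure D3:**
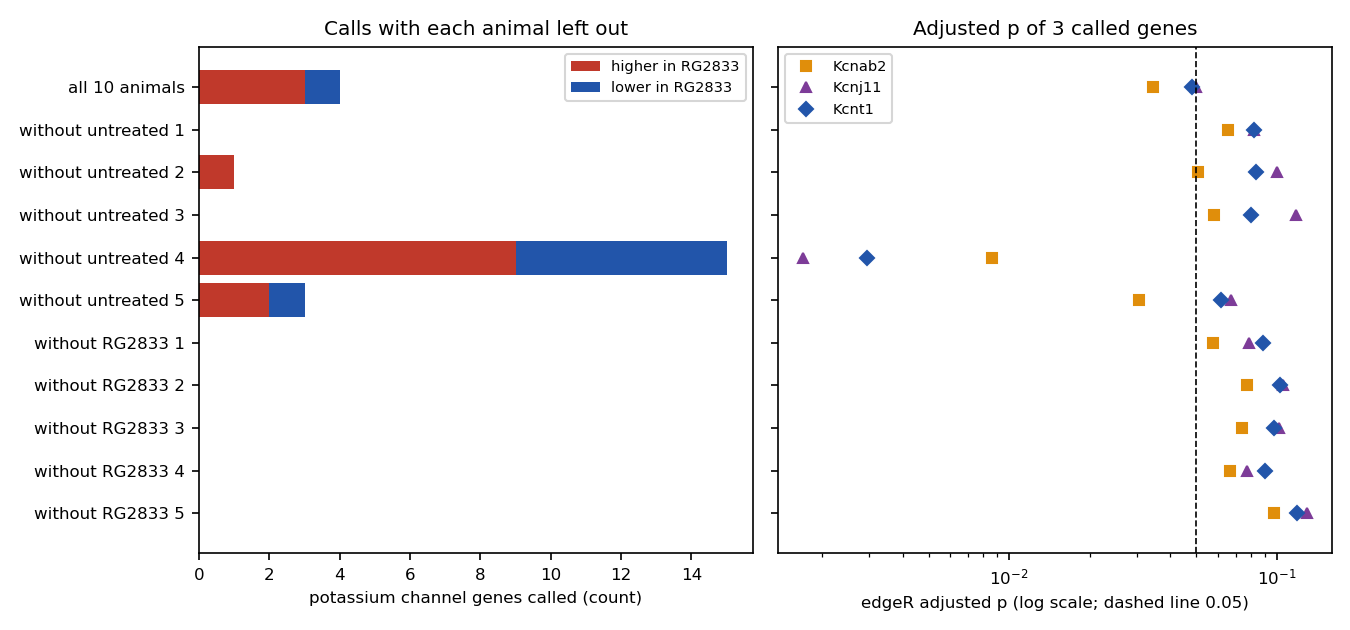
Left, number of potassium channel genes called higher or lower (x axis) with all 10 animals and with each animal left out. Right, edgeR adjusted p on a log axis for Kcnab2, Kcnj11 and Kcnt1 in the same fits, with the threshold of 0.05 dashed, where the fit without untreated animal 4 gives 15 calls and 7 of the 10 fits give 0.

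The untreated animals differed in how many potassium channel genes lay inside the range of the 5 RG2833 animals. The number was 25, 24, 30, 46 and 45 of 73 in untreated animals 1 to 5 (34.2, 32.9, 41.1, 63.0 and 61.6%), against 37.4, 37.0, 42.5, 60.0 and 48.8% of all tested genes. Untreated animals 4 and 5 were thus the nearest to the RG2833 group in these genes. Summed over all 90 genes, the level was 2775, 2899, 3249, 3672 and 3586 CPM in untreated animals 1 to 5 and 3868, 3793, 3891, 3692 and 4284 CPM in animals 1 to 5 on RG2833. The sums did not overlap on this scale, but they did when computed otherwise. With library totals in place of TMM scaling, untreated animals 4 and 5 had 3695 and 3704 CPM, above RG2833 animal 4 at 3648 CPM. Without Kcnab2, the gene that gave the largest part of the sum, untreated animals 4 and 5 had 3327 and 3283 CPM, again above RG2833 animal 4 at 3218 CPM.

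Summed markers of excitatory neurons were also higher in the RG2833 group. Over 7 excitatory neuron markers, the summed level was 4875 to 6747 CPM in untreated and 6873 to 7523 CPM with RG2833, with untreated animal 4 the highest of its group at 6747 CPM. All 7 were tested and had a log2 fold change above 0 (median 0.53), against 49.4% of all tested genes, and 1 of them, Camk2a, was called higher, against 2.41%. Of 5 markers of neurons in general 4 had a log2 fold change above 0 and 1, Rbfox3, was called higher, while Stmn2 had -0.13. Of 7 markers of CA pyramidal cells 6 were above 0 and 1, Nptx1, was called higher. Of 3 tested dentate granule cell markers 2 were above 0, 0 were called (smallest adjusted p by edgeR of 0.205) and Calb1 had -0.57. Over 8 inhibitory neuron markers the sum was 479.6 to 857 CPM in untreated and 495 to 666 CPM with RG2833, and over 6 astrocyte markers it was 2640.2 to 4372 CPM in untreated and 3132 to 4289 CPM with RG2833 (smallest adjusted p by edgeR of 0.305 and 0.183). The sums were 249 to 351 CPM in untreated and 230.3 to 257 CPM with RG2833 for 8 vascular markers and 336 to 529.9 CPM in untreated and 336 to 430.0 CPM with RG2833 for 6 microglial markers. Of the vascular markers 7 of 8 had a log2 fold change below 0 (median -0.28, smallest adjusted p by edgeR of 0.0809). Of the microglial markers 5 of 6 were below 0, and Aif1 was called lower, against 2.67% of all tested genes (log2 fold change -0.74 with an SE of 0.20, adjusted p = 0.0496 by edgeR). Of 3 tested choroid plexus markers all were below 0 (median -1.81), but untreated animal 1 carried 2 of them. Ttr was at 2381, 8.79, 3.80, 6.61 and 14.8 CPM in untreated animals 1 to 5 and at 3.82, 7.31, 38.4, 16.3 and 4.81 CPM in animals 1 to 5 on RG2833, and Clic6 was at 23.6, 1.30, 0.0927, 1.95 and 4.65 and 0.286, 0.714, 3.31, 3.41 and 1.15 CPM. The third, Prlr, was called lower without overlap (log2 fold change -0.86 with an SE of 0.21, adjusted p = 0.0394 by edgeR). Over 4 oligodendrocyte precursor markers the sum was 164 to 198 CPM in untreated and 142 to 189.5 CPM with RG2833, with 3 of the 4 below 0 (smallest adjusted p by edgeR of 0.0688, for Pdgfra). Over 6 oligodendrocyte markers it was 5679 to 17658 CPM in untreated and 9002 to 12182 CPM with RG2833, with all 6 above 0 (smallest adjusted p by edgeR of 0.472). No listed marker was at 0 in every library. In bulk tissue, a different number of cells of a type and a different amount of RNA per cell cannot be told apart, and the part of cell composition in the potassium channel values was not tested.

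**Figure D4:**
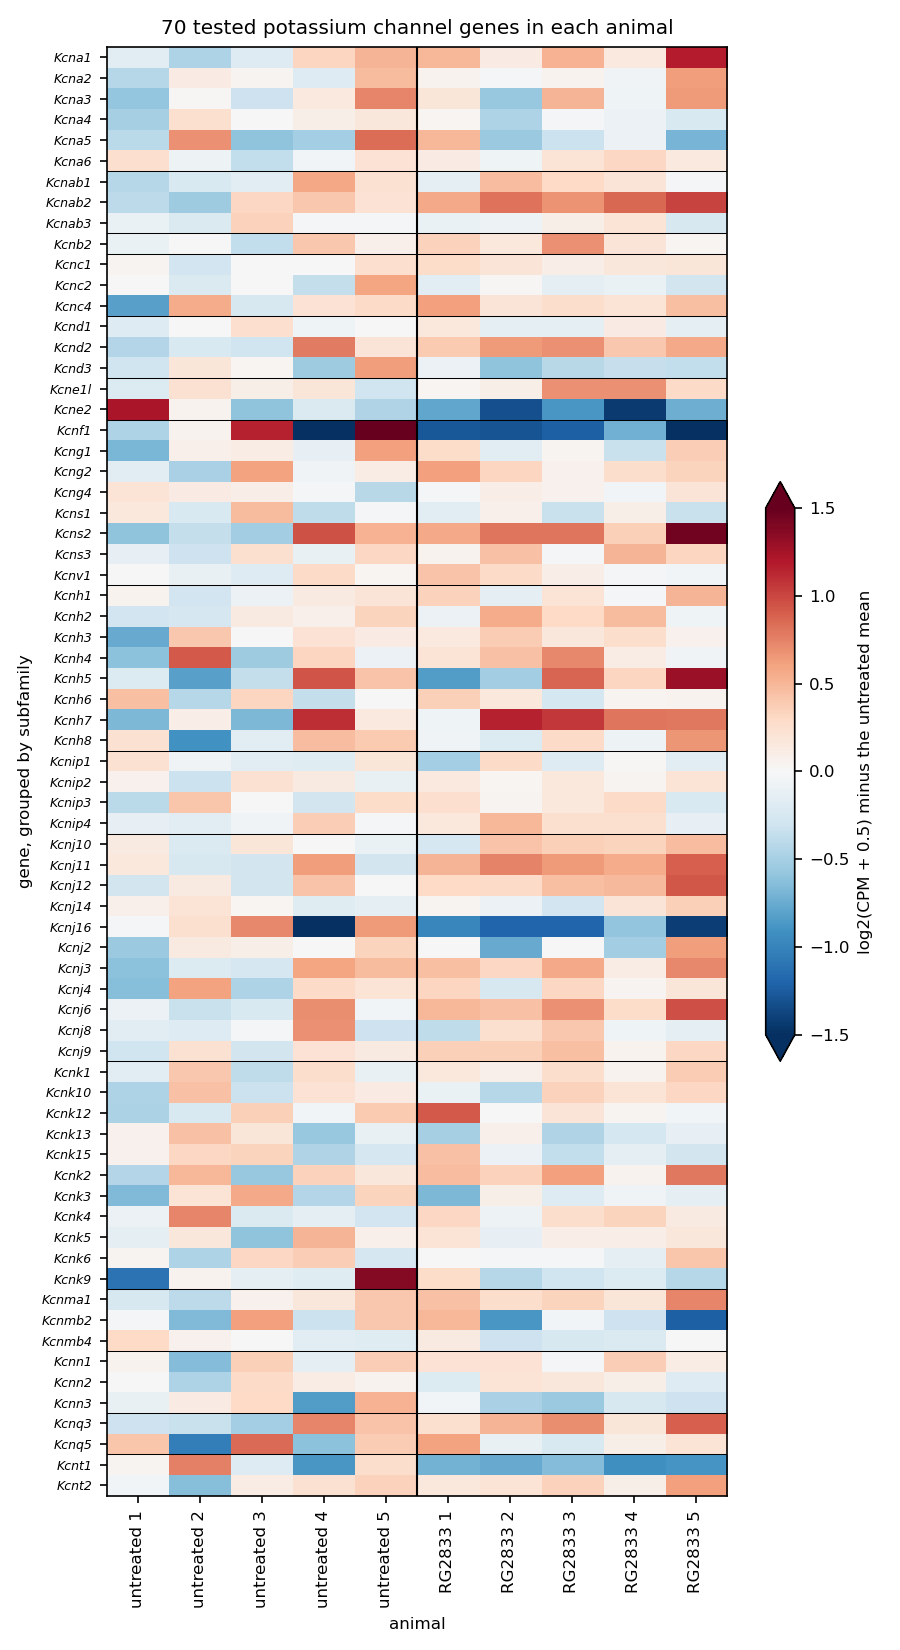
Log2(CPM + 0.5) minus the untreated mean (colour, capped at 1.5 either way) for 70 of the 73 tested potassium channel genes (rows, by subfamily) in each animal (columns). Untreated animal 4 shares the blue of the RG2833 animals at Kcnf1, Kcnj16 and Kcnt1, and Kcne2 is red in untreated animal 1.

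Kv1 channels (Kcna genes) sit in axons, and their beta subunits (Kcnab genes) bind them from the cytoplasm. None of the 6 tested Kv1 genes was called, against 5.08% of all tested genes, and 1, Kcna1, had an unadjusted p under 0.05, against 24.5%. Their estimates ran from -0.38 for Kcna5 to 0.51 for Kcna1 (log2 fold change, median 0.13), with Kcna2, Kcna3 and Kcna4 in between. Kcna1, the Kv1.1 subunit known from episodic ataxia, was at 15.3, 12.4, 15, 21.8 and 24.8 CPM in untreated and 24.7, 18.8, 25.1, 19.2 and 39.8 CPM in animals 1 to 5 on RG2833, where untreated animals 4 and 5 lay within the RG2833 range (log2 fold change 0.51 with an SE of 0.23, adjusted p = 0.189 by edgeR). Kcna6, the Kv1 gene with the most counts, had 76.4 ± 13.0 and 83.6 ± 7.77 CPM (SD, n = 5 each). Among the beta subunits, Kcnab1 had 137 ± 40.4 and 150.0 ± 24.7 CPM and Kcnab3 9.91 ± 1.6 and 9.70 ± 1.21 CPM, with log2 fold changes of 0.13 and -0.03 (edgeR adjusted p = 0.686 and 0.903), so of the 3 beta subunits Kcnab2 was the 1 that passed. A difference between Kcnab2 and the other beta subunits was not tested.

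Kv2 and Kv3 subunits include the delayed rectifiers of soma and fast-firing axon. Kcnb2 (Kv2.2) was 4.17 ± 0.926 and 5.17 ± 1.06 CPM (SD, n = 5 each, adjusted p = 0.348 by edgeR). Within Kv3, Kcnc1, Kcnc2 and Kcnc4 had log2 fold changes of 0.18, -0.17 and 0.28 and did not pass (edgeR adjusted p = 0.233, 0.529 and 0.412). Kcnc1 and Kcnc2, which mark fast-spiking interneurons, stood at 90.7 ± 11.9 against 103 ± 4.53 CPM and 42.7 ± 11.9 against 38.0 ± 2.88 CPM (SD, n = 5 each). The interneuron marker Pvalb stood at 65.9 ± 15.7 against 58.9 ± 10.1 CPM (edgeR adjusted p = 0.564).

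Kv4 channels carry the dendritic A-type current and bind KChIP calcium sensors. Kcnd2 and Kcnd3 had estimates of opposite sign, and that of Kcnd1 was -0.03 (log2 fold change). Kcnd2, or Kv4.2, was at 77.4, 89.6, 85.3, 181 and 119.8 CPM in untreated and 138, 165, 169.8, 139 and 156 CPM in animals 1 to 5 on RG2833 (log2 fold change 0.47 with an SE of 0.20, adjusted p = 0.162 by edgeR). Kcnd3, or Kv4.3, was at 76.3, 107, 95.8, 65.1 and 146 CPM in untreated animals and at 88.2, 61.8, 70.5, 73.9 and 72.9 CPM on RG2833 (log2 fold change -0.41 with an SE of 0.18, adjusted p = 0.184 by edgeR). Neither passed with all animals, and untreated animal 4 had both the highest Kcnd2 value and the lowest Kcnd3 value of its group. Without that animal both passed, with log2 fold changes of 0.72 and -0.53 (edgeR adjusted p = 0.00381 and 0.0464). In that fit 13.1% of all tested genes were called, against 5.08% with all animals. The animal is singled out here by these same values, and leaving it out widens both differences, so the fit is no separate support. Estimates for the 4 KChIP genes ran from -0.10 for Kcnip1 to 0.20 for Kcnip4 (log2), and 0 of them passed at an unadjusted p under 0.05, against 24.5% of all tested genes. Kcnip4, with the smallest p of them, was at 30.4, 29.5, 32.0, 42.8 and 32.5 CPM in untreated and 36.9, 46.8, 39.2, 39.2 and 30.3 CPM in animals 1 to 5 on RG2833, and the groups overlapped. Kcnip2, the KChIP with the most counts, had 245 ± 35.2 and 263 ± 14.4 CPM (95% interval of the log2 fold change -0.11 to 0.32).

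Kv7 subunits (Kcnq genes) form the M channel, which limits repetitive firing. Kcnq3 was at 37.5, 37.1, 32.6, 77.6 and 62.7 CPM in untreated animals 1 to 5 and at 55.1, 66.8, 75.9, 53.2 and 87.6 CPM in animals 1 to 5 on RG2833, where untreated animals 4 and 5 lay in the RG2833 range. Its log2 fold change of 0.45 with an SE of 0.23 was not called (edgeR adjusted p = 0.251). Kcnq5 differed little between group means (108 ± 52.1 against 107 ± 25.4 CPM) but ran from 46.9 to 174 CPM among untreated animals.

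The EAG family (Kcnh genes, Kv10 to Kv12) had 8 tested members, all with a log2 fold change above 0 (against 49.4% of all tested genes) and 0 called (against 5.08%; median 0.20, smallest edgeR adjusted p = 0.254). At an unadjusted p under 0.05, 0 of the 8 passed, against 24.5% of all tested genes. Without untreated animal 4, Kcnh6 had a log2 fold change of -0.04. Kcnh7, an ERG channel, was at 1.94, 3.70, 1.95, 7.91 and 3.81 CPM in untreated and 3.24, 8.21, 7.65, 6.31 and 6.28 CPM in animals 1 to 5 on RG2833. RG2833 animal 1 was the lowest of its group, and untreated animal 4 the highest of its own. Estimates for the others ran from 0.05 for Kcnh6 to 0.41 for Kcnh5 (log2). Kcnh3, with the most counts of the family, had 124 ± 32.9 and 139 ± 12 CPM (SD, n = 5 each).

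Silent Kv subunits do not form channels alone and modify Kv2. Kcnf1 (Kv5.1) had the lowest estimate of all 73 genes, at -1.91 with an SE of 0.60 (log2, adjusted p = 0.0793 by edgeR), but did not pass. It was at 7.89, 11.5, 25.3, 1.49 and 39.5 CPM in untreated and 4.29, 4.19, 4.44, 6.52 and 3.24 CPM in animals 1 to 5 on RG2833. The untreated group spanned the whole range, with animal 4 below every RG2833 animal, the other 4 above every RG2833 animal, and animals 3 and 5 the highest. With limma-voom the estimate was -1.24 (adjusted p = 0.366). Kcns2, a Kv9 subunit, was 5.71 ± 3.19 and 9.61 ± 3.13 CPM (edgeR adjusted p = 0.187), and Kcng1, with the most counts of the silent genes, was 70.3 ± 22.5 and 70.3 ± 14.2 CPM (95% interval of the log2 fold change -0.44 to 0.44). Kcng2, Kcng4, Kcns1, Kcns3 and Kcnv1 had estimates from -0.16 to 0.29 (log2), none of them called. Of the single-pass KCNE subunits, Kcne2, which choroid plexus epithelium also makes, was at 9.15, 3.80, 2.22, 3.07 and 2.54 CPM in untreated and 1.91, 1.16, 1.76, 1.03 and 1.99 CPM in animals 1 to 5 on RG2833. The highest value was in untreated animal 1, the library with 2455 CPM of choroid plexus markers. The log2 fold change was -1.38 with an SE of 0.40 (adjusted p = 0.0631 by edgeR) with all animals and -0.89 (edgeR adjusted p = 0.0905) without that animal. The other tested KCNE gene, Kcne1l, was 2.35 ± 0.451 and 3.18 ± 0.809 CPM.

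The inward rectifiers had 11 tested genes, 8 of them with a log2 fold change above 0 (median 0.29), against 49.4% of all tested genes, and 1, Kcnj11, called, against 5.08%. The Kir3 subunits couple to G proteins. Kcnj6 (Kir3.2), with the most counts of the family, was at 233, 197, 211, 402 and 241 CPM in untreated and 352, 335, 401, 301 and 485 CPM in animals 1 to 5 on RG2833. Untreated animal 4 lay within the RG2833 range and the other untreated animals below it (log2 fold change 0.54 with an SE of 0.19, adjusted p = 0.101 by edgeR). Kcnj3 (Kir3.1) was 42.3 ± 15.3 and 55.0 ± 9.03 CPM and Kcnj9 (Kir3.3) 53.5 ± 9.66 and 65.6 ± 6.63 CPM (SD, n = 5 each), with edgeR adjusted p-values of 0.288 and 0.158.

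Kcnj10 encodes the astrocytic channel Kir4.1, and Kcnj16 the Kir5.1 subunit that joins it. Their estimates had opposite signs. Kcnj16 was at 20.9, 25.4, 35.7, 6.89 and 33.5 CPM in untreated and 10.6, 9.10, 9.10, 14.1 and 7.74 CPM in animals 1 to 5 on RG2833, with a log2 fold change of -1.27 with an SE of 0.34 (adjusted p = 0.0503 by edgeR, just above the threshold). All RG2833 animals were below 4 of the 5 untreated animals, and untreated animal 4 was the lowest of all 10. Kcnj10 was at 21.7, 16.9, 22.3, 19.7 and 18.3 CPM in untreated animals 1 to 5 and at 16.4, 26.7, 25.4, 24.9 and 27.4 CPM on RG2833, where animal 1 was the lowest of all 10 and the other 4 were the highest (log2 fold change 0.29 with an SE of 0.14, adjusted p = 0.221 by edgeR). Of the remaining inward rectifiers, Kcnj12 was 4.89 ± 1.13 and 7.05 ± 1.5 CPM (edgeR adjusted p = 0.117), and Kcnj2, Kcnj4, Kcnj8 and Kcnj14 had log2 fold changes between -0.11 and 0.06. Kcnj8 (Kir6.1), the vascular relative of Kcnj11, was 3.52 ± 1.28 and 3.50 ± 0.871 CPM.

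Tandem-pore (K2P) leak channels had 11 tested genes and 0 calls (against 5.08% of all tested genes), with a median log2 fold change of 0.06 and a smallest edgeR adjusted p of 0.241. At an unadjusted p under 0.05, 0 of these 11 passed, against 24.5% of all tested genes. Kcnk2 (TREK-1), a channel opened by stretch and lipids, was at 8.81, 17.3, 7.97, 15.5 and 13.6 CPM in untreated and 16.8, 15.5, 18.7, 12.5 and 21.3 CPM in animals 1 to 5 on RG2833. Untreated animals 1 and 3 were low and the other animals of both groups overlapped. Kcnk1 (TWIK-1), with the most counts, was 73.5 ± 16.9 and 82.2 ± 8.0 CPM (95% interval of the log2 fold change -0.14 to 0.46). Of the acid-sensitive TASK channels, Kcnk9 was 4.25 ± 3.30 and 3.04 ± 0.783 CPM and Kcnk3 4.33 ± 1.64 and 3.57 ± 0.739 CPM, the former with the lowest estimate of the family (-0.48 on the log2 scale, adjusted p = 0.50 by edgeR). The estimates of Kcnk4, Kcnk5, Kcnk6, Kcnk10, Kcnk12, Kcnk13 and Kcnk15 ran from -0.31 to 0.24.

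Calcium-activated channels had 6 tested genes, of which 0 were called (against 5.08% of all tested genes) and 1, Kcnma1, had an unadjusted p under 0.05 (against 24.5%, edgeR). Kcnma1, the BK pore, was at 33.9, 30.4, 41.9, 45.2 and 53.5 CPM in untreated and 54.7, 48.3, 50.7, 45.5 and 66.9 CPM in animals 1 to 5 on RG2833, where untreated animal 5 reached into the RG2833 range (log2 fold change 0.38 with an SE of 0.15, adjusted p = 0.147 by edgeR). Its neuronal beta subunit Kcnmb4 was 45.0 ± 6.40 and 41.2 ± 5.49 CPM, a log2 fold change of -0.13 with an SE of 0.11 (adjusted p = 0.510 by edgeR). Among the small-conductance genes, which carry the medium afterhyperpolarisation, Kcnn3 was at 5.26, 6.29, 7.14, 2.98 and 8.46 CPM in untreated and 5.53, 3.92, 3.72, 4.76 and 4.5 CPM in animals 1 to 5 on RG2833, where untreated animal 4 was below every RG2833 animal and untreated animals 2, 3 and 5 above (edgeR adjusted p = 0.300). Kcnn2, with the most counts of these genes, was 32.2 ± 5.83 and 32.3 ± 4.40 CPM, and the 95% interval of its log2 fold change was -0.29 to 0.30. Kcnn1 and the BK subunit Kcnmb2 had estimates of 0.14 and -0.47 (log2; edgeR adjusted p = 0.658 and 0.568). Beside Kcnt1, the sodium-activated family holds Kcnt2 (Slick), which was 20.7 ± 4.98 and 24.9 ± 3.92 CPM (log2 fold change 0.26 with an SE of 0.17, adjusted p = 0.351 by edgeR). The estimates of Kcnt1 and Kcnt2 had opposite signs, and their difference was not tested.

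The 17 genes left out by the filter on low counts were Kcna7, Kcna10, Kcne1, Kcne3, Kcne4, Kcng3, Kcnj1, Kcnj5, Kcnj13, Kcnj15, Kcnk16, Kcnk18, Kcnmb1, Kcnmb3, Kcnn4, Kcnq1 and Kcnv2. Kcna10, Kcne1 and Kcnj1 had 0 counts in all 10 libraries, against a floor of 3 counts. Kcnj13, which encodes Kir7.1 of choroid plexus epithelium, had 175 counts (20.02 CPM) in untreated animal 1 and 0 to 6 counts in the other 9 libraries. The highest count of any other gene in this group was 20, for Kcnk16 in untreated animal 1.

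Genes of potassium handling were listed by role, with 54 genes on the lists, 52 of them in the table and 49 tested. Beside partners and regulators of these channels, the lists covered HCN pacemaker channels (5 genes), the sodium-potassium pump (9) and potassium-chloride cotransport (4). Of the 49, 5 were called, all of them higher (10.2%, against 2.41% higher and 2.67% lower over all tested genes). A log2 fold change above 0 was seen in 35 of the 49, against 49.4% of all tested genes. Ank3 (ankyrin G), which anchors Kv7 channels at the axon initial segment, was at 308, 280.4, 317, 371 and 352 CPM in untreated and 410.0, 444, 419, 403 and 456 CPM in animals 1 to 5 on RG2833, without overlap. Its log2 fold change was 0.39 with an SE of 0.08 (adjusted p = 0.0271 by edgeR). Chrm1, the muscarinic receptor that closes Kv7 channels, was at 76.3, 82.5, 84.2, 135 and 103 CPM in untreated and 142, 134, 159.8, 131 and 163 CPM in animals 1 to 5 on RG2833, with untreated animal 4 inside the RG2833 range (0.60 with an SE of 0.14, adjusted p = 0.0357 by edgeR). Calm3, 1 of 3 calmodulin genes and a constitutive partner of Kv7 and SK channels, was at 836, 674, 909, 937 and 802 CPM in untreated and 1059.9, 1117, 1042, 1116 and 1079.7 CPM in animals 1 to 5 on RG2833, without overlap (0.38 with an SE of 0.09, adjusted p = 0.0351 by edgeR), whereas Calm2 had a log2 fold change of -0.16 and did not pass. Adora1, the adenosine receptor that opens Kir3 channels, was at 42.4, 30.8, 46.4, 63.1 and 50.1 CPM in untreated and 65.8, 72.2, 76.3, 77.6 and 101 CPM in animals 1 to 5 on RG2833, without overlap (0.75 with an SE of 0.17, adjusted p = 0.0284 by edgeR). Hcn2, a pacemaker channel related to Kv channels, was at 71.0, 67.9, 107, 119.8 and 103 CPM and 141, 141, 144, 146 and 159 CPM, also without overlap (0.64 with an SE of 0.14, adjusted p = 0.0288 by edgeR).

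Several genes on these lists, direct partners of the potassium channel genes among them, did not pass. Dpp6 and Dpp10, the transmembrane partners of Kv4, had log2 fold changes of 0.54 with an SE of 0.16 and -0.72 with an SE of 0.31 (adjusted p = 0.0644 and 0.172 by edgeR), opposite in sign as Kcnd2 and Kcnd3 were. Abcc8, the sulfonylurea receptor that assembles with the Kcnj11 product, had 34.5 ± 9.60 and 50.2 ± 10.3 CPM (log2 fold change 0.54 with an SE of 0.18, adjusted p = 0.0922 by edgeR), and Abcc9 15.3 ± 2.51 and 16.7 ± 2.20 CPM. Gabbr2, a GABA-B receptor subunit upstream of Kir3, had a log2 fold change of 0.33 with an SE of 0.09 (edgeR adjusted p = 0.0512). Fxyd6, of the sodium-potassium pump list, had the lowest estimate of the 49, at -1.27 with an SE of 0.37 (log2, edgeR adjusted p = 0.0655). It was at 41.4, 79.4, 57.4, 13.2 and 80.7 CPM in untreated animals 1 to 5 and at 16.6 to 27.4 CPM with RG2833. In the 10 fits that left out 1 animal, when 0.826 to 13.1% of all tested genes were called, Ank3, Calm3, Adora1 and Hcn2 were called in 3 and Chrm1 in 2. After adjustment for the share of ribosomal RNA 0 of the 49 were called. Only 0.017% of all tested genes were called then, too few to tell the listed genes from the rest.

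The potassium channel genes were also set against properties outside the count table. Their windows had a median GC content of 61.3%, against 51.7% over all windows. The median genomic span of the 73 tested genes was 41.4 kb on GRCr8, against 24.3 kb over the 11595 tested genes with a known span. Across the 73 genes, span and log2 fold change had a Spearman correlation of 0.174, against 0.157 across the 11595, and genes in 1 set of libraries are not independent replicates. Of the 73, 59 had estimated counts within 0.005 of a whole number in every library. The other 14 had fractional counts in at least 1 library, and 8 of these, among them Kcnj6, in all 10, so their values rest in part on how reads were shared out and are less certain.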

How the data were processed

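RNA from the left hippocampus of 10 female rats was sequenced, 1 library for each animal. The authors deposited estimated counts (RSEM expected counts, 2 decimals, not normalized, per the file name). Per the submitters' processing notes, bcl2fastq 2.17, Bowtie2 2.1.0, RSEM 1.2.15 and edgeR were used with build rn6. The gene annotation and the strand setting are not given in the sources used here. The second table the authors deposited, the same libraries already scaled, was not used.

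Columns were matched to samples by title. Counts were rounded to whole numbers, low genes were removed with filterByExpr by group, and edgeR 4.0.16 (R 4.3.3) quasi-likelihood tests with TMM scaling compared 5 RG2833 with 5 untreated animals. Standard errors come from the log2 fold change and F (their ratio after taking the root of F), and intervals use the fit's degrees of freedom. Scripts were tested on simulated data. Library pairs within groups differed by a chi-square of 4.60 to 36.3 per degree of freedom, above sampling noise. The labels do not mention littermates or cages. The p-values therefore take the animals as independent, which could not be checked. Alternatives used DESeq2 1.42.0, limma 3.58.1 and sva 3.50.0. The members, lists and tests were chosen with earlier results of these data known. Values are given in every animal for called genes and the gene with the smallest p in each subfamily, and means for the gene with the most counts. The other genes named, by the same rule, are members or genes of the listed roles, and Kcnj13 was singled out after its values were seen. Some genes counted among the totals are not reported here.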

Additional observations from a re-analysis of the deposited data

Results flagged for a closer look

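Groups of 5 values were taken in each treatment group for 70 tested potassium channel genes, Kcnj13 and the called genes of potassium handling. The library total, the ribosomal RNA share and the summed level were added likewise. Of these 158 groups, 15 held a highest or lowest value whose gap to its neighbour exceeded 0.71 of the range. This is Dixon's 95% limit for 5 values. Chance flags about 1 in 20, or 7.9 here, and the genes share their animals.

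Untreated animal 1 gave 2 of them. Kcnj13 was 20.02 CPM in untreated animal 1 against 0 to 0.278 CPM in the rest of its group and Kcne2 was 9.15 CPM in untreated animal 1 against 2.22 to 3.80 CPM. This library also had the highest choroid plexus marker sum, and the part of that tissue in these values was not tested. Untreated animal 4 gave 3, all high. Kcnj6 was 402 CPM in untreated animal 4 against 197 to 241 CPM, Kcnip4 42.8 CPM in untreated animal 4 against 29.5 to 32.5 CPM and Kcnj8 5.77 CPM in untreated animal 4 against 2.64 to 3.34 CPM. Elsewhere in the untreated group, Kcnk4 was 32.3 CPM in untreated animal 2 against 15.7 to 18.1 CPM and Kcnk9 9.94 CPM in untreated animal 5 against 1.37 to 3.70 CPM.

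In the RG2833 group, animal 5 was high for Kcna2 (9.63 CPM in RG2833 animal 5 against 5.79 to 6.30 CPM), Kcnj12 (9.63 CPM in RG2833 animal 5 against 5.98 to 6.93 CPM), Kcnk6 (2.82 CPM in RG2833 animal 5 against 1.76 to 2.0 CPM) and Hcn2 (159 CPM in RG2833 animal 5 against 141 to 146 CPM). Animal 1 was low for the astrocytic channel gene Kcnj10 (16.4 CPM in RG2833 animal 1 against 24.9 to 27.4 CPM) and high for the leak channel genes Kcnk12 (13.5 CPM in RG2833 animal 1 against 6.70 to 7.96 CPM), Kcnk15 (5.63 CPM in RG2833 animal 1 against 3.00 to 3.75 CPM) and Kcnk9 (4.39 CPM in RG2833 animal 1 against 2.50 to 3.00 CPM).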

How the results depend on the processing

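The counts of called genes are given in the order potassium channel genes, those higher, those lower, genes of the potassium handling lists and all genes. They were 4, 3, 1, 5 and 599 with all animals and TMM scaling. They were 9, 5, 4, 9 and 1295 with DESeq2's Wald test, 8, 4, 4, 9 and 1466 at an adjusted p under 0.1, 0, 0, 0, 0 and 2 when adjusted for the share of ribosomal RNA, 0, 0, 0, 0 and 85 with 1 surrogate variable, and 10, 5, 5, 14 and 1379 without untreated animals 1 and 4 together, a setting chosen after seeing the data. With library totals only and with a mean count of at least 50, 2 potassium channel genes were called lower (Kcnt1 and Kcnj16), and with limma-voom 0 were. Over the 10 fits that left out 1 animal, the ranges were 0 to 15, 0 to 9, 0 to 6, 0 to 14 and 98 to 1556, all with their highest value without untreated animal 4. Other counts under DESeq2 size factors, library totals, no filter, the mean count filter and limma-voom stayed within 1.5 times, with Kcnj11 lost under library totals and no filter and Kcnt1 lost under limma-voom. The median log2 fold change of the tested potassium channel genes stayed between 0.08 and 0.19 over all settings, and the summed level was higher in RG2833 animals by 669 CPM, by 634 CPM with library totals and by 486 CPM without Kcnab2, although the groups overlapped in both of these. The median of the SK and IK genes, near 0, changed sign with library totals.

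Adjusted for the share of ribosomal RNA, the log2 fold changes of 6 of the genes followed here, none called with all animals, changed sign, to -0.26 for Kcna1, -0.11 for Kcnd2, -0.18 for Kcnh7, -0.15 for Kcnj6, 0.12 for Kcnn3 and -0.28 for Kcns2. The share separates the groups, and the cause was not tested. Same-numbered animals are different animals, their deviations from the group means correlated between -0.319 and 0.151, and 1 of 10 animals correlated best with its own number, so the numbers did not pair them. With the replicate block the counts were 1, 1, 0, 2 and 180, and Kcnab2 was the channel gene called (edgeR adjusted p = 0.0444). The difference in library total (255797 counts, exact permutation p = 0.659) and in ribosomal RNA share (-2.26 percentage points) kept direction and side of the threshold over the tested genes only. The estimates of Kcnh5 and Kcnmb2 were imprecise, with 95% intervals of the log2 fold change of -0.99 to 1.81 and -1.47 to 0.54.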
